A study of Mus musculus with 6 samples.

Results

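Transcripts of 37 cell cycle and DNA replication genes were followed in the lungs of mice with and without an intact Zpbp2 gene. The genes were taken by exact gene symbol from a list of genes with known roles in the cycle, written with earlier results of these data known, and all 37 were found among the 41388 genes of the count table. All 37 also passed the filter on low counts, which left 18660 genes for testing. They fall into 13 genes of the G1/S transition and S phase (G1/S cyclins, origin licensing factors, subunits of the replicative helicase, replication fork and nucleotide supply) and 24 genes of G2 and mitosis.

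Lung RNA was sequenced from 3 control mice (WT1 to WT3) and 3 mutant mice (KO1 to KO3), all collected at Zeitgeber time 7, that is 7 h after lights on. KO mice were of the strain B6.129S7-Zpbp2tmZuk/Mmjax, which lacks the 5′ end of Zpbp2, on a C57BL/6J background, and WT mice were C57BL/6J from the colony in which the KO mice were kept. Both genotypes were adult, lived under a light/dark cycle and received no treatment. The KO line had been kept as a strain for several years, and the sources do not state that WT and KO mice were littermates, so the deletion and any other difference between the strains cannot be told apart.

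At the G1/S transition, cyclin E with its kinase takes part in releasing the E2F programme. Origins are licensed by Cdc6 and Cdt1, which load the Mcm2 to Mcm7 helicase, and DNA is copied around the sliding clamp Pcna. Mitosis is driven by cyclin B with Cdk1, by the Polo and Aurora kinases and by spindle motors, and it ends when the anaphase-promoting complex marks cyclins and securin for destruction. Most cells of the adult lung are not dividing, so transcripts of these genes come from few cells of the tissue. In RNA from whole lung, fewer cells of a type and less RNA per cell cannot be told apart.

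The promoters of the genes whose values are given most fully below differ between the S phase and mitotic genes, and 6 are shown to make that visible. The sequences are from RefSeq on GRCm38.p6, which held a promoter for 31 of the 37 genes, and run from 250 bases before to 50 bases after the start site, 5′ to 3′ along the gene. Capitals mark matches, on either strand, to the letters TTTGAA or TTCGAA of the CHR element, to CCAAT, and to TTTCCCGC, TTTCGCGC, TTTGCCGC or TTTGGCGC of the E2F site. Mcm6 is at chr1:128359656-128359955 (minus strand), Pcna at chr2:132253131-132253430 (minus strand), Ccnb2 at chr9:70421505-70421804 (minus strand), Plk1 at chr7:122159185-122159484 (plus strand), Aurka at chr2:172370521-172370820 (minus strand) and Ube2c at chr2:164769679-164769978 (plus strand).
Mcm6: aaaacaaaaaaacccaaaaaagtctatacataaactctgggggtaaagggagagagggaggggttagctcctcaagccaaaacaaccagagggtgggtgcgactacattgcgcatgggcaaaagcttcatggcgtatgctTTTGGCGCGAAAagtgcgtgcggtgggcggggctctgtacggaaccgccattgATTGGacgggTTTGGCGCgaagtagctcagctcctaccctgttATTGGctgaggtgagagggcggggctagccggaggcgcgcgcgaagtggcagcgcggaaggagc
Pcna: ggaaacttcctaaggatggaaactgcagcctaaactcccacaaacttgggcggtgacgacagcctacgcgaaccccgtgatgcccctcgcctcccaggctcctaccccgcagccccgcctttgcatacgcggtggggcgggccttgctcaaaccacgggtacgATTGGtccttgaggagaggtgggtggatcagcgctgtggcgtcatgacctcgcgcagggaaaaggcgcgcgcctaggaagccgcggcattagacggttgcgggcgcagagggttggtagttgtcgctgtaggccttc
Ccnb2: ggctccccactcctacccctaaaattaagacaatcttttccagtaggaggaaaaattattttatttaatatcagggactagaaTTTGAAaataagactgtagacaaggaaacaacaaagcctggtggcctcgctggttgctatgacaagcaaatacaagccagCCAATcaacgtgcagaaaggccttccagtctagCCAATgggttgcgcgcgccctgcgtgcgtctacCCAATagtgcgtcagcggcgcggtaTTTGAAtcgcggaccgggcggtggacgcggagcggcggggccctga
Plk1: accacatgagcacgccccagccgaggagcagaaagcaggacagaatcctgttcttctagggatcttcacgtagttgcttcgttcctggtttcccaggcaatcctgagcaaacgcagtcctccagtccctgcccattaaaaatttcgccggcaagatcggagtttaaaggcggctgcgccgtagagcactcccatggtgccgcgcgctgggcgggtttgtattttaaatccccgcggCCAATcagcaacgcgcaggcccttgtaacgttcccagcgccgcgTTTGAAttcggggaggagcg
Aurka: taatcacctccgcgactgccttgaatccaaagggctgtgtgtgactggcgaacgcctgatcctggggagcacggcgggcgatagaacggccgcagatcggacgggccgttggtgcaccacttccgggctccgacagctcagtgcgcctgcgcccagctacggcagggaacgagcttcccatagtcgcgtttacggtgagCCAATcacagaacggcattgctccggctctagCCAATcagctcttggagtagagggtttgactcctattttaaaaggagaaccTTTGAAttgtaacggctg
Ube2c: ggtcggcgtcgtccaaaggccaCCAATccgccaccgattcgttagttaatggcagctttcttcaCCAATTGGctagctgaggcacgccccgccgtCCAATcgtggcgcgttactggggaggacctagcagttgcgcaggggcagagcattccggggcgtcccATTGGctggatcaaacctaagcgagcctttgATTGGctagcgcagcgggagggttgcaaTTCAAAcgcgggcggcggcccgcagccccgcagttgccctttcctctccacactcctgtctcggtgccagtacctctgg

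Mcm6, of the helicase, held 3 E2F matches, at -110, -106 and -47 from the start site, the first 2 of them overlapping, and 2 CCAAT matches. Pcna held a single CCAAT match. The mitotic genes held CHR matches instead: 2 in Ccnb2, at -167 and 4, 1 in Plk1 at 30, 1 in Aurka at 32 and 1 in Ube2c at -29. Ube2c also held 6 CCAAT matches, of which those at -186 and -183 overlap. Across the genes with a promoter in the table, CHR letters were present in 16 of 20 G2 and M phase promoters (80.0%) and 2 of 11 S phase promoters (18.2%), against 19.2% of all 32851 promoters. E2F letters were present in 6 of 11 S phase promoters (54.5%) and 1 of 20 G2 and M phase promoters (5.0%), that of Cdk1, against 2.26% of all promoters. CCAAT was present in 7 of 11 (63.6%) and 17 of 20 (85.0%), against 37.4%. These matches describe the sequence and do not show that a factor binds there.

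The libraries held 59134950 to 71354388 counts. Zpbp2, the deleted gene, had 20, 15 and 7 counts in WT1 to WT3 and 1, 0 and 0 in KO1 to KO3, a check of the labels that rests on few reads. Surfactant protein C (Sftpc), which defines alveolar type 2 cells, was at 12163 to 19559 CPM (counts per 1000000 counts of the library, scaled by TMM factors) in all 6 libraries. WT3 and KO1 stood apart from the other 4 libraries on the first principal component, which held 59.1% of the variance, and carried squamous epithelium transcripts. Over genes from 20 up to 20000 counts in a pair, KO2 and KO3 differed by 1.71 to 1.93 times counting variance, KO1 and KO2 by 3.74 to 21.0 times and WT1 and WT2 by 1.86 to 9.32 times. Above 20000 counts these ratios were 3.32, 147 and 51.6. For that reason KO2 and KO3 enter every mean ± SD and test as a single sample unless stated, which gives 3 WT and 2 KO samples. Whether they are 1 library deposited under both names is not known, and counts of genes with every KO library above or below every WT library treat them as separate.

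The comparison of KO with WT asked whether the deletion went with a different level of the cell cycle programme in lung. No member passed the test after adjustment. In edgeR's quasi-likelihood test with Benjamini-Hochberg adjustment over all 18660 genes, 0 of 37 members were called, which required an adjusted p no higher than 0.05, while 2.28% of all tested genes were. The same threshold without adjustment was passed by 4 members (Ube2c, Plk1, Aurka and Ccnb2), all with estimates above 0 in KO, and by 27.3% of all tested genes. The smallest adjusted p of a member was 0.139, for Ube2c. With KO2 and KO3 kept as separate samples, 1 member (Ube2c) was called beside 18.9% of all genes, and with DESeq2 on the merged samples 1 (Ube2c, adjusted p = 0.0216) beside 21.0%. edgeR's exact test called 0 members beside 1.12%.

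The estimates lay mostly on the higher side in KO without passing the test. Of the 37 estimates, 31 were above 0 and 6 below (Ccne2, Mcm4, Bub1, Bub1b, Cenpa and Mki67). Their median log2 fold change was 0.17, against 0.02 over all tested genes, and the median of the absolute values was 0.17 against 0.20. The S phase genes had a median of 0.12, with 11 above and 2 below 0, and the G2 and M phase genes 0.25, with 20 above and 4 below. The G2 and M phase median rested on single libraries: it was 0.12 without WT1, 0.13 without KO1 and 0.51 without WT3, while the S phase median was 0.11, 0.09 and 0.13 in those fits. The median over all members was 0.11 without WT1 and 0.31 without WT3. Every KO library was above every WT library for 7 members (Ccne1, Cdt1, Mcm3, Mcm6, Pcna, Plk1 and Ube2c), that is 5 of 13 S phase genes and 2 of 24 G2 and M phase genes, where 20.0% of all tested genes had this order. The opposite order was found for 0 members, where 20.9% of all tested genes had it.

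**Figure D1:**
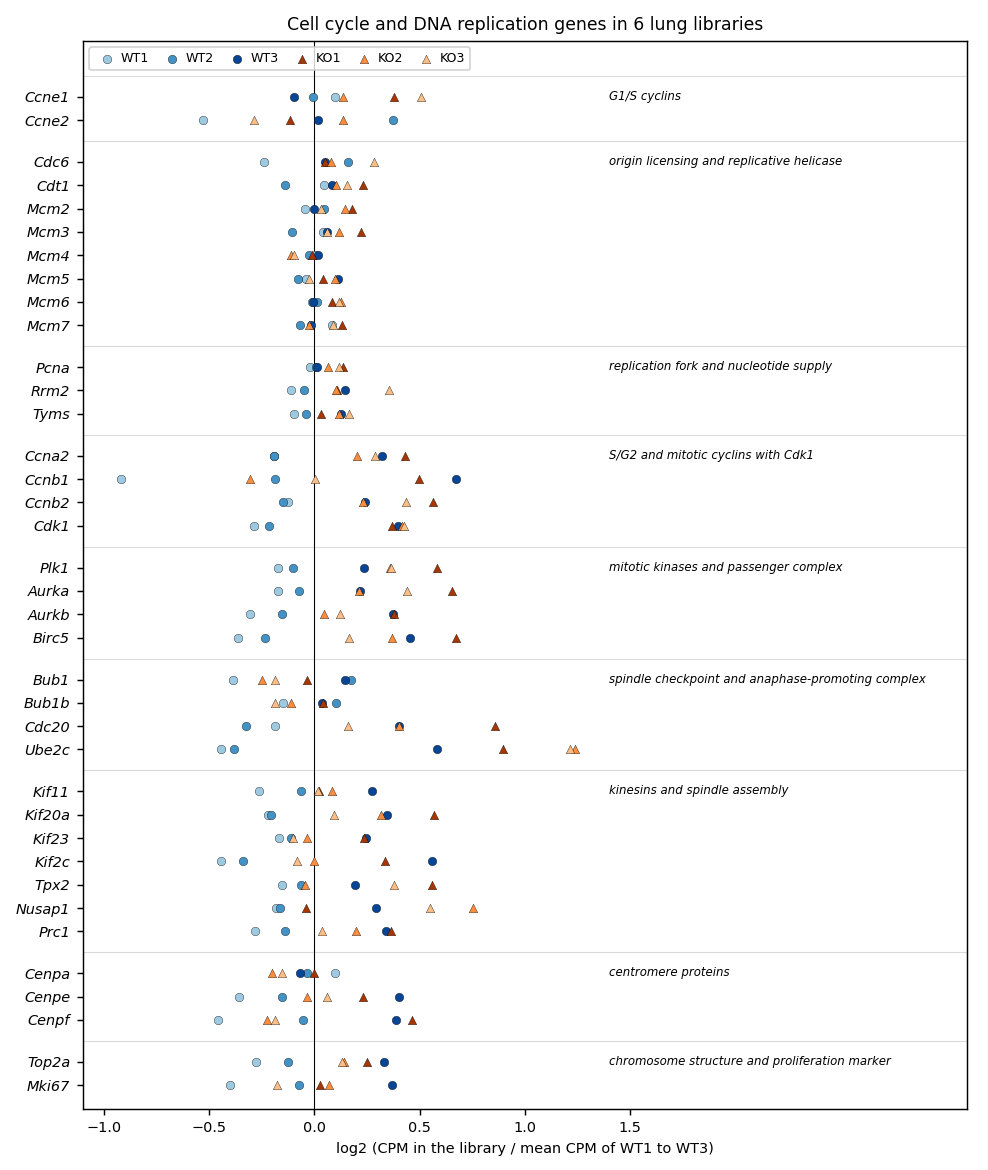
Level of each of the 37 genes in each library as log2 of its CPM over the mean CPM of WT1 to WT3, with circles for WT, triangles for KO, and genes grouped by role. Apart from Ccne1 and Ccne2, S phase genes lie in a narrower band than most mitotic genes, in which WT3 is often to the right of WT1 and WT2, and Ube2c is the gene furthest to the right in KO2 and KO3.

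**Figure D2:**
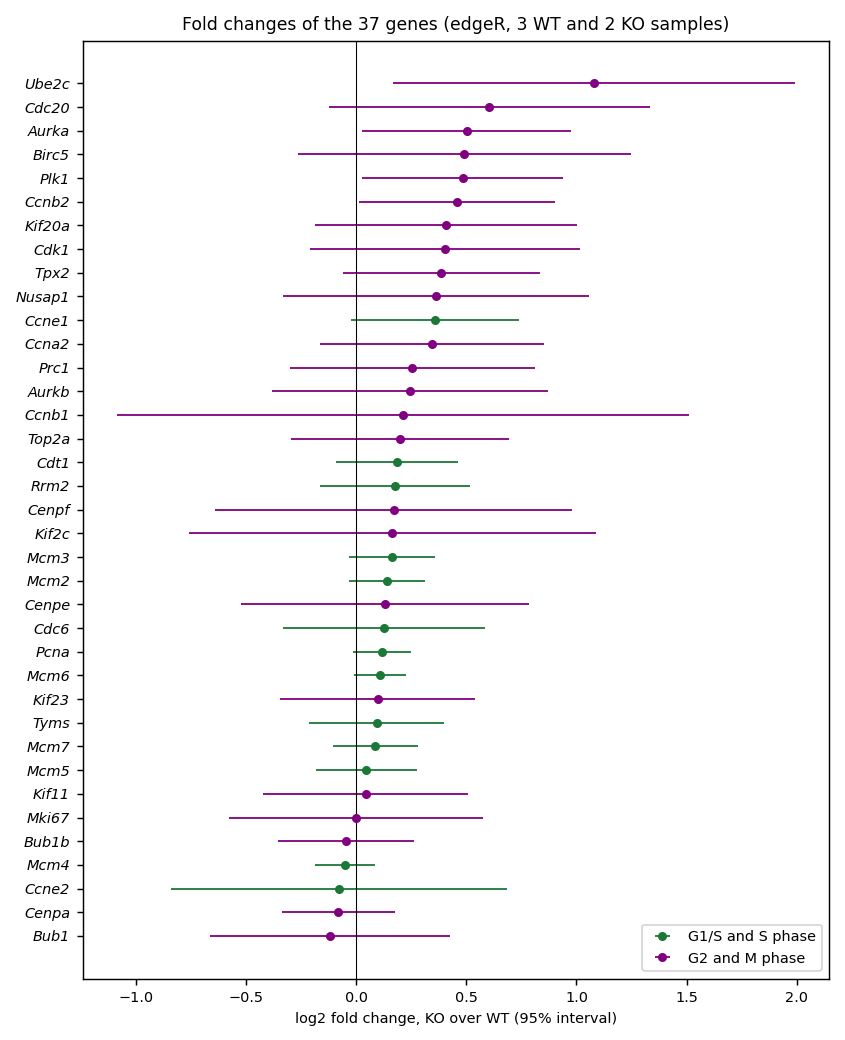
Log2 fold change of each gene in KO over WT with its 95% interval from edgeR (3 WT and 2 KO samples), ordered by estimate and coloured by phase. The intervals of Ube2c, Aurka, Plk1 and Ccnb2 lie above 0, and those of the other 33 genes include 0.

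The 6 helicase subunits varied little between libraries. Mcm6, a subunit of the helicase, was at 35.5, 36.0 and 35.6 CPM in WT1 to WT3 and at 37.8, 38.9 and 38.7 CPM in KO1 to KO3. The groups did not overlap, and the difference was small: log2 fold change 0.11 (95% interval -0.01 to 0.23, edgeR adjusted p = 0.216). Mcm3 was at 26.8, 24.3 and 27.2 CPM in WT and 30.5, 28.3 and 27.2 CPM in KO. Its lowest KO library, KO3, was level with its highest WT library, WT3, to the digits given. The log2 fold change of Mcm3 was 0.16 (95% interval -0.03 to 0.36, adjusted p = 0.250).

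Mcm2, Mcm5 and Mcm7 overlapped between genotypes, with means of 19.1 ± 0.61, 13.3 ± 0.95 and 20.7 ± 1.13 CPM in WT (SD, n = 3) and 21.0 ± 0.91, 13.7 ± 0.03 and 21.9 ± 1.05 CPM in KO (SD, n = 2). Mcm4 was the helicase subunit with an estimate below 0. It was at 30.4, 29.8 and 30.7 CPM in WT and 30.1, 28.1 and 28.4 CPM in KO, with a log2 fold change of -0.05 (95% interval -0.19 to 0.08, adjusted p = 0.588). For all 6 subunits the 95% intervals lie within 0.36 on the log2 scale of no change in either direction. Mcm7 exons overlap those of Ap4m1 and Cops6 on the other strand and host Mir25 and Mir93. Its counts could have gained or lost reads through these overlaps.

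The licensing factors that load the helicase were less abundant. Cdt1 was at 8.51, 7.48 and 8.72 CPM in WT and 9.66, 8.84 and 9.19 CPM in KO, so that its groups did not overlap (log2 fold change 0.19, 95% interval -0.09 to 0.46, adjusted p = 0.340). Cdc6 was at 1.87, 2.47 and 2.29 CPM in WT and 2.29, 2.33 and 2.69 CPM in KO, with overlapping groups (log2 fold change 0.13, adjusted p = 0.701). Cdc6 is one of 2 members close to the deletion: on GRCm38 it spans 98907801 to 98923940 of chromosome 11, 0.349 Mb from Zpbp2, and Top2a lies 0.434 Mb away. Neither was called, and the other chromosome 11 members, Birc5 and Aurkb, lie 19.3 and 29.5 Mb away.

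At the replication fork, Pcna, the sliding clamp that tethers the polymerases, was at 26.1, 26.6 and 26.7 CPM in WT and 29.1, 27.7 and 28.7 CPM in KO. Its groups did not overlap (log2 fold change 0.12, 95% interval -0.01 to 0.25, adjusted p = 0.218). Rrm2, the regulated subunit of the reductase that makes deoxyribonucleotides, was at 4.42, 4.62 and 5.29 CPM in WT and 5.15, 5.13 and 6.11 CPM in KO. Tyms, which makes thymidylate, was at 5.87, 6.11 and 6.84 CPM in WT and 6.40, 6.80 and 7.03 CPM in KO. For Rrm2 and Tyms it was WT3 that reached into the KO range. Their log2 fold changes were 0.18 and 0.09 (adjusted p = 0.450 and 0.671).

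The E-type cyclins, which start the S phase programme with Cdk2, were near the low end of the list. Ccne1 was at 1.66, 1.54 and 1.45 CPM in WT and 2.02, 1.70 and 2.21 CPM in KO. The lowest KO library, KO2, was just above WT1, and the log2 fold change was 0.36 (95% interval -0.02 to 0.74, adjusted p = 0.203), the highest estimate among the S phase genes. Ccne2 varied more within WT, at 0.81, 1.52 and 1.18 CPM, and was at 1.08, 1.29 and 0.96 CPM in KO (log2 fold change -0.08, adjusted p = 0.894). Its exons overlap those of Ints8 on the other strand.

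Levels were also divided by the kilobases of exon of each gene, pooled over all its annotated transcripts. This length can exceed that of the main transcript, so ranks between genes depend on it and are approximate. On this scale Pcna had the highest WT level of the members at 11.0 CPM per kilobase. Next were Mcm4 at 8.45, Mcm6 at 7.65, Mcm3 at 6.96, Mcm7 at 4.67 and Mcm5 at 3.34. Mcm2, at 2.75, was level with Cdc20, the mitotic gene with the highest level, also at 2.75. Mki67 at 2.54 and Ccnb2 at 2.46 were close to these, Plk1 was at 1.29 and Cdk1 at 0.86, and Ccnb1 had the lowest level at 0.14.

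Ube2c, the E2 enzyme with which the anaphase-promoting complex starts ubiquitin chains, had the largest estimate of the list. It lies at chr2:164769898-164778822 on GRCm38. It was at 2.59, 2.71 and 5.27 CPM in WT1 to WT3 and at 6.56, 8.33 and 8.18 CPM in KO1 to KO3. No WT value reached the KO range, and WT3 stood well above WT1 and WT2. The log2 fold change was 1.08 (SE 0.36, 95% interval 0.17 to 1.99), with a WT mean of 3.52 ± 1.51 CPM (SD, n = 3) and a KO mean of 7.41 ± 1.20 CPM (SD, n = 2), and an adjusted p of 0.139. Over 18 alternatives the adjusted p ran from 0.00156 to 0.455 and the log2 fold change from 0.90 to 1.64. The exons of Ube2c overlap 592 bases of Tnnc2, a muscle gene on the other strand, which had 24, 15, 14350, 23839, 19 and 4 counts in WT1 to KO3. Whether counting used the strand is not given in the sources used here. WT3 and KO1 are the libraries rich in Tnnc2. Their Ube2c counts may have gained or lost reads through this overlap, which was not tested. Within WT, Ube2c was highest in WT3, and within KO it was lowest in KO1. Without WT3 and KO1 the log2 fold change of Ube2c was 1.64 (adjusted p = 0.00156).

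The other members around the checkpoint did not share this pattern. Cdc20, the activator that brings substrates to the anaphase-promoting complex, was at 4.50, 4.09 and 6.79 CPM in WT and 9.30, 6.77 and 5.73 CPM in KO. WT3 lay among the KO values (log2 fold change 0.61, 95% interval -0.13 to 1.34, adjusted p = 0.249). The estimate was 0.29 without KO1 and 0.86 without WT3. Bub1, a checkpoint kinase, was at 2.99, 4.42 and 4.32 CPM in WT and 3.81, 3.30 and 3.44 CPM in KO (log2 fold change -0.12, adjusted p = 0.764). Bub1b, its partner in holding back anaphase, was at 8.71, 10.4 and 9.91 CPM in WT and 9.96, 8.96 and 8.49 CPM in KO (log2 fold change -0.04, adjusted p = 0.845). Both overlapped between genotypes.

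For Cdk1, Ccnb2 and Ccna2, WT3 and all KO libraries were above WT1 and WT2. Cdk1, the mitotic kinase, was at 3.49, 3.67 and 5.60 CPM in WT and 5.50, 5.68 and 5.72 CPM in KO. WT3 lay within the KO range, and the log2 fold change was 0.40 (95% interval -0.21 to 1.01, adjusted p = 0.345). Ccnb2, its cyclin B2 partner, was at 3.46, 3.40 and 4.45 CPM in WT and 5.58, 4.42 and 5.10 CPM in KO (log2 fold change 0.46, 95% interval 0.01 to 0.90, adjusted p = 0.174). Ccna2, cyclin A2, was at 4.87, 4.86 and 6.94 CPM in WT and 7.48, 6.40 and 6.78 CPM in KO (log2 fold change 0.34, adjusted p = 0.333). In both cyclins only WT3 overlapped KO. Ccnb1, cyclin B1, rested on 23 to 57 counts and was at 0.32, 0.52 and 0.95 CPM in WT and 0.84, 0.48 and 0.60 CPM in KO, so that all KO values lay within the WT range (log2 fold change 0.21, adjusted p = 0.825). Exons of Ccna2 overlap those of Exosc9 on the other strand.

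Aurka, Birc5 and Plk1 had the largest estimates after Ube2c and Cdc20. Plk1, the Polo kinase of mitotic entry and exit, was at 2.51, 2.64 and 3.34 CPM in WT and 4.24, 3.63 and 3.65 CPM in KO, without overlap (log2 fold change 0.48, 95% interval 0.03 to 0.94, adjusted p = 0.167). Aurka, the centrosomal Aurora kinase, was at 2.18, 2.34 and 2.85 CPM in WT and 3.86, 2.85 and 3.34 CPM in KO, where KO2 and WT3 were level (log2 fold change 0.50, 95% interval 0.03 to 0.98, adjusted p = 0.167). Plk1 and Aurka were higher in KO1 than in KO2 and KO3. Birc5, the survivin subunit of the chromosomal passenger complex, was at 2.37, 2.59 and 4.19 CPM in WT and 4.86, 3.94 and 3.42 CPM in KO (log2 fold change 0.49, 95% interval -0.27 to 1.25, adjusted p = 0.352). Aurkb, the kinase of the same complex, was at 2.68, 2.98 and 4.29 CPM in WT and 4.31, 3.42 and 3.61 CPM in KO (log2 fold change 0.24, adjusted p = 0.578). For both, WT3 reached the KO values. Leaving out single libraries gave 0.28 to 0.78 for Birc5 and 0.09 to 0.47 for Aurkb. Exons of Plk1 and Cdc20 overlap genes on the other strand by 156 and 53 bases.

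The 7 kinesins and spindle proteins had estimates from 0.04 (Kif11, the motor that pushes the spindle poles apart) to 0.41 (Kif20a, a motor of the spindle midzone), and none was called. In all 7, WT3 was above WT1 and WT2. Nusap1, which bundles spindle microtubules, was at 3.87, 3.92 and 5.37 CPM in WT and 4.27, 7.41 and 6.42 CPM in KO. KO1 lay between the WT libraries, unlike KO2 and KO3, and Nusap1 and Ube2c are the 2 members for which KO2 and KO3 stood furthest above KO1. Its log2 fold change was 0.36 (95% interval -0.33 to 1.06, adjusted p = 0.450), and 0.83 without WT3 and KO1 (adjusted p = 0.0189). Tpx2, an activator of Aurora A, was at 4.57, 4.86 and 5.82 CPM in WT and 7.50, 4.94 and 6.61 CPM in KO. Its log2 fold change was 0.39 (adjusted p = 0.234). Leaving out single libraries gave 0.18 to 0.49 for Tpx2 and 0.22 to 0.61 for Kif20a. Kif23 and Kif2c, motors of cytokinesis and of microtubule depolymerisation, and Prc1, which crosslinks the midzone, had log2 fold changes of 0.10, 0.16 and 0.25. Exons of Kif20a, Prc1 and Nusap1 overlap genes on the other strand by 1271, 911 and 172 bases.

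Centromere, chromosome structure and proliferation genes had estimates from -0.08 to 0.20. Mki67, the Ki-67 protein used as a mark of cycling cells, was at 19.4, 24.3 and 33.0 CPM in WT and 26.1, 26.9 and 22.6 CPM in KO. Its KO values all lay within the WT range, and the log2 fold change was -0.00 (95% interval -0.58 to 0.58, adjusted p = 0.997). Top2a, the topoisomerase that untangles chromosomes, was at 13.3, 14.8 and 20.4 CPM in WT and 19.2, 17.8 and 17.7 CPM in KO. Its log2 fold change was 0.20 (adjusted p = 0.566) and ran from 0.08 to 0.39 over the 18 alternatives. Cenpa, the centromeric histone, was at 12.2 ± 0.75 CPM in WT and 11.4 ± 0.98 CPM in KO (log2 fold change -0.08, adjusted p = 0.649). Cenpe and Cenpf, of the outer kinetochore, had log2 fold changes of 0.13 and 0.17.

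The spread inside the WT group was larger than the differences between the genotypes for many G2 and M phase genes. WT3 was above both WT1 and WT2 in 21 of 24 of them (87.5%) and in 7 of 13 S phase genes (53.8%), where 36.0% of all tested genes had this order. The median log2 difference of WT3 from the mean of WT1 and WT2 was 0.54 in the G2 and M phase genes and 0.03 in the S phase genes. By library, the median G2 and M phase level against the WT mean was -0.27, -0.14 and 0.34 in WT1 to WT3 and 0.37, 0.11 and 0.11 in KO1 to KO3 on the log2 scale. The S phase medians were -0.02, -0.02 and 0.02 in WT and 0.11, 0.10 and 0.12 in KO. The S phase medians therefore separated the genotypes by a small step and the mitotic medians did not, since WT3 was above KO2 and KO3. With scaling by library size alone the median log2 fold change of the S phase genes was 0.064 in place of 0.12, and that of all tested genes -0.04 in place of 0.02.

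**Figure D3:**
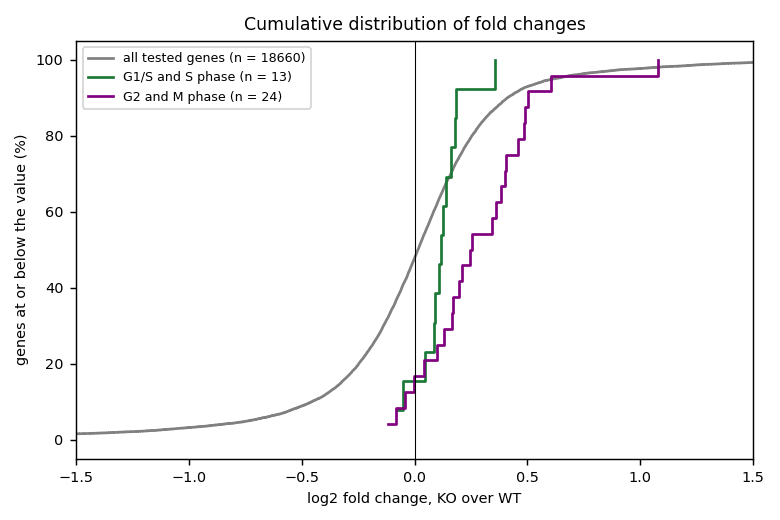
Cumulative share of genes by log2 fold change in KO over WT, for all 18660 tested genes, the 13 S phase genes and the 24 G2 and M phase genes; the axis ends at 1.5 in either direction. The G2 and M phase line (median 0.25) runs to the right of the S phase line (median 0.12) above the middle, and both are shifted from the line of all genes (median 0.02).

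The libraries also differed in transcripts of other cell types. The 15 squamous epithelium markers, all in the table, summed to 15.6, 12.7 and 4858 CPM in WT and 9274, 9.52 and 9.79 CPM in KO. Krt5, which defines basal squamous cells, was at 2.15, 2.34 and 130 CPM in WT and 216, 1.41 and 1.11 CPM in KO. WT3 and KO1, the libraries rich in these markers, were also the ones with the highest G2 and M phase medians. Their part in the result was not tested beyond a fit with a term for these markers, in which Cdc20 was the only member called (adjusted p = 0.0498) beside 12.7% of all genes. Without WT3 and KO1, which leaves 2 WT libraries and 1 merged KO sample, 3 members (Cdk1, Ube2c and Nusap1) were called, all higher, beside 11.9% of all genes. With a single KO sample that test assumes it varies like the WT samples.

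Blood and lung cell markers had other patterns across the libraries. The 10 erythroblast markers summed to 80.3, 89.0 and 71.6 CPM in WT and 78.6, 83.0 and 81.2 CPM in KO, and Klf1, which defines them, was at 0.31 CPM or less in every library. Most of that sum was Tfrc, the transferrin receptor of many dividing and other cells, at 60.7 to 78.3 CPM. Tspo2, another gene of the list, was at 0.33, 0.38 and 0.52 CPM in WT and 0.38, 2.40 and 2.67 CPM in KO, so the sum does not describe each marker. The 9 erythroid markers in the table, mostly globins of mature red cells, summed to 2776, 2483 and 5679 CPM in WT and 4089, 19407 and 20164 CPM in KO. The 9 B cell markers summed to 618 to 808 CPM over the 6 libraries. The 10 alveolar type 2 markers summed to 31442 to 33213 CPM in KO against 22298 to 23216 CPM in WT. Of the 10, 4 were called higher, beside 2.28% of all tested genes called in either direction. Much of the sum was Sftpc, at 18194 to 19559 CPM in KO and 12163 to 12526 CPM in WT. Abca3 overlapped between genotypes. The 7 alveolar type 1 markers summed to 6288 to 6665 CPM in KO against 5418 to 5791 CPM in WT. Of the 7, 3 were called higher, again beside 2.28% of all tested genes. Clic5, of the same list, was lower in KO, at 844, 989 and 991 CPM against 1033, 1186 and 1066 CPM in WT. Rtkn2 and Cav1 overlapped between genotypes, so the sum does not describe each marker. Adipocyte markers were lower in KO, with sums of 215 to 395 CPM against 950 to 1422 CPM in WT. Of these 10 genes, 4 were called lower. The 9 cardiomyocyte markers summed to 1414 to 2035 CPM in KO and 3179 to 7773 CPM in WT, with 0 called. Sums also did not overlap for the ciliated and club list (38595 to 51052 CPM in KO, 29254 to 34139 CPM in WT), the plasma cell list (530 to 546 and 440 to 480 CPM), the hepatocyte list (88.6 to 144 and 77.5 to 82.7 CPM) and, lower in KO, the neutrophil list (139 to 143 and 161 to 249 CPM) and the thymocyte list (146 to 155 and 158 to 163 CPM). Single genes made up much of these sums. They were Scgb1a1 in the ciliated and club list, Rmnd5a in the thymocyte list, and Xbp1 and Sdc1 in the plasma cell list. Trf held much of the hepatocyte sum and Ltf of the neutrophil sum, so these sums do not describe each marker. Scgb1a1 was at 32099 to 42667 CPM in KO and 23364 to 27313 CPM in WT. In its list Scgb3a2, Sec14l3, Dnah5 and Ccdc113 overlapped between genotypes, and the other markers did not. Alb, the defining hepatocyte marker, was at 1.04, 1.26 and 0.97 CPM in WT and 3.07, 23.97 and 24.94 CPM in KO. No marker list had a gene at 0 in all libraries. Their part in the result was not tested.

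**Figure D4:**
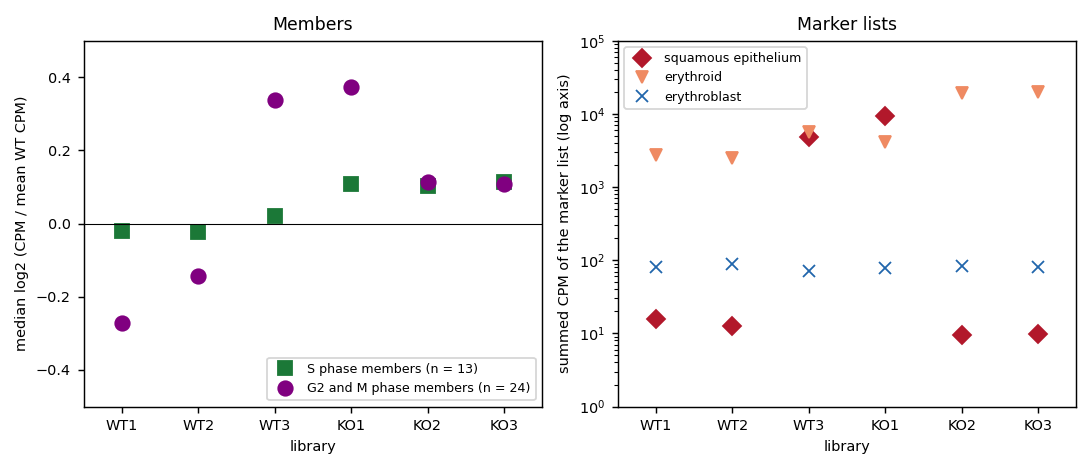
Left, median log2 level of the S phase and G2 and M phase genes against the WT mean in each library; right, summed CPM of the squamous epithelium, erythroid and erythroblast marker lists on a log axis. G2 and M phase medians are highest in WT3 (0.34) and KO1 (0.37), the libraries where squamous markers reach 4858 and 9274 CPM, and the erythroblast sum, most of it Tfrc, stays between 71.6 and 89.0 CPM.

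The fold changes also moved with gene length. Across genes, which are not independent replicates, Spearman's rho of log2 fold change against exon length was -0.33 over 18516 genes with a known length, -0.45 over the 37 members, -0.68 over the 24 G2 and M phase genes and -0.28 over the 13 S phase genes. Short mitotic genes such as Ccnb2, Cdc20 and Plk1 had the higher estimates, while long ones such as Cenpf, Mki67 and Top2a had lower ones. With a per-library offset for length and GC content, rho was -0.03 over all genes, 0.01 over the members, -0.19 over the G2 and M phase genes and 0.29 over the S phase genes, the last opposite in sign to its value without the offset. In that fit the log2 fold change of Ube2c was 0.97, of Plk1 0.34 and of Mki67 0.18, and 33 of 37 members were above 0. Cenpf was at 0.45 in place of 0.17 and Top2a at 0.37 in place of 0.20, and the G2 and M phase median was 0.36 in place of 0.25. The points share the same 6 libraries, and the values are given as a description.

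**Figure D5:**
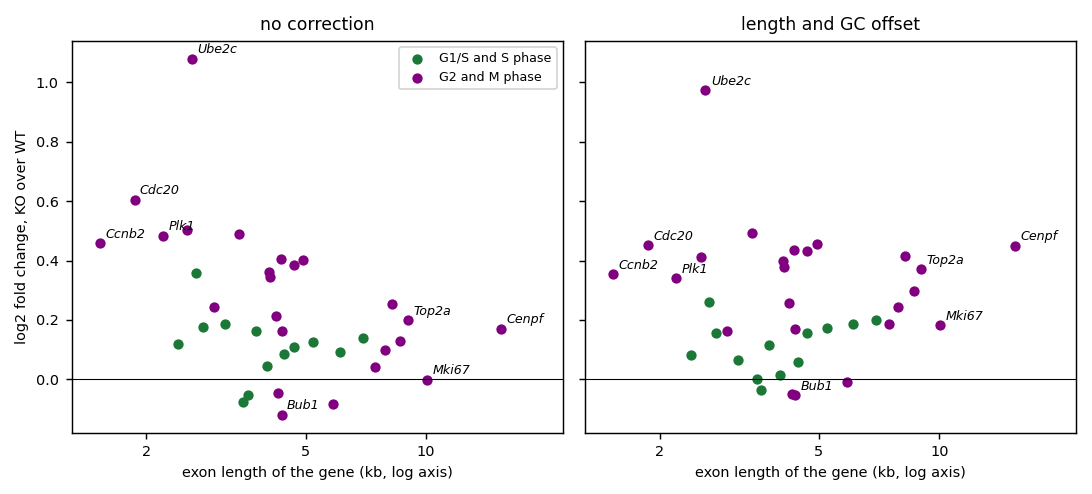
Log2 fold change in KO over WT against exon length in kilobases (log axis) for the 37 genes, without correction on the left and with a per-library offset for length and GC content on the right. Short mitotic genes lie highest on the left (rho -0.68 for G2 and M phase), and the trend is weaker on the right (rho -0.19).

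Beyond the members, 3 further lists were read from the same fit. Of 49 further DNA replication genes, 0 were called, 34 estimates were above and 15 below 0, and the median log2 fold change was 0.08. Without adjustment 9 were higher and 1 lower at the same threshold, which 27.3% of all tested genes passed. Every KO library was above every WT library for 17 of the 49 and below for 3, beside 20.0% and 20.9% of all tested genes. Rpa1, which coats single-stranded DNA, was at 69.7 ± 2.54 CPM in WT and 72.1 ± 2.37 CPM in KO (log2 fold change 0.05, adjusted p = 0.565), and Rfc1, of the clamp loader, at 63.1 ± 1.53 and 60.3 ± 0.84 CPM (log2 fold change -0.06, adjusted p = 0.463). With KO2 and KO3 separate 3 of the 49 were called, Orc6 and Timeless higher and Pola1 lower, where 18.9% of all genes were called.

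Of 60 further mitosis genes, 0 were called, with 43 estimates above and 17 below 0, a median of 0.10, and 6 higher and 1 lower without adjustment, beside the same 27.3%. Every KO library was above every WT library for 9 of the 60 and below for 2, beside 20.0% and 20.9% of all tested genes. Pttg1, the securin that guards sister chromatid cohesion, was at 58.5, 52.1 and 52.2 CPM in WT and 68.4, 68.6 and 72.1 CPM in KO. The groups did not overlap, and the log2 fold change was 0.36 (95% interval 0.18 to 0.54, adjusted p = 0.0597). Bub3, a checkpoint protein, was at 61.9 ± 2.47 CPM in WT and 71.2 ± 4.27 CPM in KO (log2 fold change 0.21, adjusted p = 0.106). With KO2 and KO3 separate 3 of the 60 were called, all higher (Spc24, Pttg1 and Cdc25b), again beside 18.9% of all genes.

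Of 43 cell cycle inhibitors and G1 regulators, 2 were called, both higher in KO, where 2.28% of all tested genes were called. Of the 43 estimates 28 were above and 15 below 0, from -0.78 to 1.31, with a median of 0.12, and without adjustment 14 were higher and 6 lower, beside 27.3% of all tested genes. Every KO library was above every WT library for 17 of the 43 and below for 7, beside 20.0% and 20.9% of all tested genes. Cdkn1c, which encodes the inhibitor p57, rose from 32.6, 28.7 and 31.2 CPM in WT to 42.5, 42.9 and 42.3 CPM in KO (log2 fold change 0.47, 95% interval 0.30 to 0.64, adjusted p = 0.0474). Over the alternatives its adjusted p ran from 2.8e-07 to 0.224. Gadd45a, a stress-induced gene that restrains the cycle, rose from 12.9, 12.1 and 12.4 CPM to 18.8, 17.3 and 16.6 CPM (log2 fold change 0.52, 95% interval 0.32 to 0.73, adjusted p = 0.0496, range 9.7e-07 to 0.514). In both genes every KO library was above every WT library. Ccnd1, cyclin D1, was at 230.5 ± 10.6 CPM in WT and 290.7 ± 19.5 CPM in KO (log2 fold change 0.34, adjusted p = 0.0704). Btg2, an antiproliferative gene that also responds early to stimulation, was at 219.6, 172.7 and 209.2 CPM in WT and 292.4, 695.1 and 701.0 CPM in KO, a split within KO like that of Ube2c and Nusap1 (log2 fold change 1.31, adjusted p = 0.105). With KO2 and KO3 separate 12 of the 43 were called, 10 higher and 2 lower (Rbl2 and Ccng2, each with a log2 fold change of -0.17), where 18.9% of all genes were.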

How the data were processed

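RNA from whole lung of 3 WT and 3 KO mice was sequenced. The deposited table holds raw counts per gene with no normalization. The authors trimmed reads, aligned them to GRCm38 (mm10) with STAR and obtained read counts of genes from HTSeq-count, all within GenPipes. The submitters' processing notes list Trimmomatic 0.36, STAR 2.5.3a, Picard 2.9.0 and HTSeq 0.6.0. The annotation release, the read length and the strand setting of the counting are not given in the sources used here, so counts of genes that overlap others are uncertain. The study's methods say that each mouse was assayed individually.

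Total counts ranged from 59134950 to 71354388, and 3 counts correspond to at most 0.0513 CPM, a limit that covers counting error only. Tests used edgeR 4.0.16 under R 4.3.3 (filterByExpr, TMM factors, glmQLFit and glmQLFTest, two-sided), with Benjamini-Hochberg adjustment over all tested genes and calls at an adjusted p of at most 0.05. Counts of KO2 and KO3 were summed, and their mean CPM is 1 replicate. P-values measure the spread between these samples. A standard error is the estimate divided by the root of its F statistic, and intervals are at 95%. DESeq2 1.42.0, edgeR's exact test, other scalings and filters, a replicate block, a squamous marker term, a length and GC offset and left-out libraries were run as alternatives. The fitting procedure was tested on simulated data. Locations, exon lengths and overlaps came from GENCODE on GRCm38, matched by identifier for 97.3% of the genes, and promoters from RefSeq. Named genes are all 37 members and, from each further list, up to 3 called genes in each direction with the smallest p and the 2 most abundant. Genes called only with KO2 and KO3 separate, and Tnnc2, Tfrc, Tspo2, Rmnd5a, Xbp1, Sdc1, Trf and Ltf, were named after their values were seen. So were the markers Scgb1a1, Scgb3a2, Sec14l3, Dnah5, Ccdc113, Clic5, Rtkn2, Cav1 and Abca3. The alternatives without WT3 and KO1 and without the merged sample were also chosen after seeing the data. The members, the lists and the merging were chosen with earlier results of these data known.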

Additional observations from a re-analysis of the deposited data

How the results depend on the processing

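Over 18 alternatives (16 planned and 2 chosen after seeing the data), 637 of 666 log2 fold changes of the members kept their direction and side of the threshold, 23 reversed (in 11 members) and 6 came past the threshold. The median of the G2 and M phase members ran from 0.12 to 0.51 and that of all members from 0.11 to 0.31, both extremes with a single WT library left out. Called genes numbered 426 of 18660, and 3402 with 6 libraries separate, 937 under a minimum of 10 counts in each library, 3919 with DESeq2, 209 with edgeR's exact test, 2377 with a squamous term, 4 with the length and GC offset, 2256 without WT3 and KO1, 0 without the merged KO2 and KO3 sample, and 0 to 418 with single libraries left out (0 without WT1, WT2 or WT3, 17 without KO1). Called members numbered 0, 1 with 6 libraries separate, with DESeq2 and with the squamous term, 3 without WT3 and KO1 and 0 without the merged sample. The replicate block with 6 libraries separate called 1157 genes, 0 members, 1 further mitosis gene and 4 inhibitors and G1 regulators. Same-numbered libraries correlated at -0.55, 0.72 and -0.77 in their deviations from the group means, so the numbers do not pair the mice.

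Further DNA replication genes called were 3 with 6 libraries separate, 4 with DESeq2 and 1 with the squamous term. Further mitosis genes were 3, 6 and 1 in those fits, 1 with at least 10 counts and 2 without WT3 and KO1. The exact test called 0 of either list. Inhibitors and G1 regulators were 12, 18 and 8 in those 3 fits, 1 with DESeq2 size factors, 0 with library size alone, 1 with no filter, 0 with the exact test, 0 with the length and GC offset, 9 without WT3 and KO1, 0 without the merged sample and 0 to 2 with single libraries left out. The median of the S phase members was 0.064 with library size alone, which also moved the median of all genes from 0.02 to -0.04. That scaling reversed Mcm5 (-0.0080) and Kif11 (-0.0098). The length and GC offset reversed Ccne2 (0.00021) and Mki67 (0.18), and Mki67 was also 0.012 under the replicate block, 0.18 without WT3 and KO1 and 0.026 without the merged sample, where Bub1b was 0.040 and Nusap1 -0.040. Leaving out single libraries gave ranges of -0.29 to 0.15 for Ccne2, -0.14 to 0.70 for Ccnb1, -0.15 to 0.0071 for Bub1b, -0.074 to 0.20 for Kif11, -0.064 to 0.23 for Kif23, -0.038 to 0.55 for Kif2c, -0.021 to 0.38 for Cenpe, -0.20 to 0.41 for Cenpf and -0.17 to 0.22 for Mki67. The cause was not tested. Of the members, Ccnb1 rested on the fewest counts, 23 to 57, followed by Ccne2 with 56 to 107. The reason for these low counts was not tested.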
